A study of Mus musculus with 4 samples.

Results

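Zfp474, Odf3b, Lrrc71, Ccdc153, Cibar2, Akap14 and Efcab10 are 7 mouse genes linked to motile cilia or to the sperm flagellum that the usual catalogues of axonemal and ciliary genes leave out. They were selected on the readout itself: their signal in embryos homozygous for the Noto GFP allele lay at least 1.5-fold (0.58 on the log2 scale) below that in heterozygotes on both arrays of the study. Their ratios are therefore a description and were not tested. The 7 genes stand among 18625 genes measured, and their 8 probes among 41174 gene probes.

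The tissue was the distal tip of mouse embryos at the early headfold stage, about E7.75, cut to contain the ventral node. Embryos were Noto GFP/GFP or Noto GFP/+, on a Sv129/CD-1 hybrid background, so the heterozygous controls also carried a GFP allele of Noto, and no Noto +/+ embryo was analysed here. Pieces were pooled, 120 to 150 in a pool, and the sample titles and the treatment protocol differ on how large a share of the embryo each piece took. Each genotype was labelled with Cy5 on 1 of 2 arrays and with Cy3 on the other. The labels name the arrays technical replicates, which is read here as repeats of 1 pool per genotype. Noto encodes a homeodomain transcription factor of the node and notochord, which are the tissue of motile monocilia at this stage; The targeted gene was not analysed here, and the genotype labels, on which the direction of every ratio rests, were not checked against it. With 1 pool of either genotype the differences have no biological replicate check: each SD below is the spread of the dye swap (n = 2 arrays), and differences between pools of one genotype were not measured. In these pooled pieces, fewer cells of a type and less RNA per cell cannot be told apart.

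A motile cilium is built on an axoneme of microtubule doublets that dynein motors slide against each other. The nexin-dynein regulatory complex links neighbouring doublets and restrains that sliding, proteins inside and along the doublets stiffen them, and a basal body anchors the whole to the cell. In the mouse node, motile cilia of the pit cells drive a leftward flow of fluid that sets left-right asymmetry. FOXJ1, a forkhead transcription factor, and RFX factors, which bind the X-box, are the known regulators of genes for motile cilia.

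The genes differ in how much is known of them. Ccdc153 encodes a coiled-coil protein that is also named DRC12, for the nexin-dynein regulatory complex. Cibar2, also called Fam92b, encodes a BAR-domain protein that works with Chibby at the base of cilia. Akap14 encodes an A-kinase anchoring protein, which holds protein kinase A in place and was described in human airway cilia. Odf3b belongs to the family of Odf3, a protein of the outer dense fibres of the sperm tail, and Lrrc71 and Efcab10 encode a leucine-rich repeat protein and an EF-hand protein that have been little studied. Zfp474 encodes a zinc finger protein, and no ciliary function of it is taken as known here.

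What the arrays read of each gene is a 60-base probe, and the last 30 bases of the probes of 6 of the genes are given here, 5′ to 3′, because a ratio below rests on each of these stretches; AATAAA, the polyadenylation signal motif, is in capitals where it occurs. Odf3b, Lrrc71, Ccdc153, Cibar2 and Efcab10 appear in the array's annotation under the older names 2010001J22Rik, 4933430H15Rik, BC038167, 1700120B06Rik and 4930504H06Rik.
Odf3b probe: accacgtggacgactgatgcctgcaagcac
Lrrc71 probe 1: tgctgtgctgttccttgaaaatcactccat
Lrrc71 probe 2: aagagacactaaactggactgtctggtggg
Ccdc153 probe: gatgcaaatgtgctgagactccacaccaga
Cibar2 probe: ggccgctctaccggcctatactccctgtgt
Akap14 probe: acttcaaagaccaggagaaattcgatttcg
Efcab10 probe: gcattgtagctcaagatAATAAAtggtcct
The Efcab10 probe was the only one of these 7 stretches with AATAAA, which 3.1% of all gene probes held in their last 30 bases. None of the 8 probes shared a run of 16 bases with another probe of the array (0 probes found). Per the array's own annotation on the mm8 build, the probes lie on 7 different chromosomes: Odf3b at chr15:89205260-89205319, Lrrc71 at chr3:87824914-87824973 and chr3:87823142-87823201, Ccdc153 at chr9:43997773-43997832, Cibar2 at chr8:123052403-123052462 and Efcab10 at chr12:33986449-33986508. The Akap14 probe, at chrX:33582313-33583304, covers 992 bases of genome with its 60 bases and so crosses an exon junction. Whether the other stretches are coding or untranslated was not determined.

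Levels are given as log2 intensity per array after normalization within and between arrays, and ratios as log2 of Noto GFP/GFP over Noto GFP/+ on the same array. Because each spot also has its scanner signal after background subtraction and dye normalization, that value, called the processed intensity, is given as well. Levels of different probes were not set against each other. Percentages of the heterozygote signal come from the mean ratios, which include an offset of 50 from the background correction, and so depend on it. The scanner software's log ratio was farther from 0 for the dim probes of Zfp474 (-1.40 against -1.08) and Ccdc153 (-1.17 against -0.91). For the bright probe of Efcab10 it was nearer 0 (-0.62 against -0.65).

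Of the genes with a known place in the cilium, Ccdc153 was the lowest in ratio. Its level was 7.73 and 7.88 in Noto GFP/GFP, against 8.58 and 8.85 in Noto GFP/+. Both homozygote values lay below both heterozygote values, with log2 ratios of -0.85 and -0.97 (mean -0.91 ± 0.08, SD, n = 2 arrays), or 53.3% of the heterozygote signal. Its processed intensity was 53.9 and 41.4 in Noto GFP/GFP, against 122 and 93.1 in Noto GFP/+, and the probe was well above background in all 4 values.

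Cibar2, at the ciliary base, had levels of 8.68 and 8.32 in Noto GFP/GFP, against 9.48 and 9.15 in Noto GFP/+. The ratio was nearly the same with either dye assignment, at -0.81 and -0.83 (mean -0.82 ± 0.02), which is 56.8% of the heterozygote signal. The processed intensity of Cibar2 was 94.9 and 52.5 in Noto GFP/GFP, against 182 and 99.9 in Noto GFP/+.

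Akap14, the kinase anchor, had levels of 8.24 and 8.05 in Noto GFP/GFP, against 8.90 and 8.84 in Noto GFP/+. Its ratios were -0.66 and -0.79 (mean -0.73 ± 0.09), or 60.5% of the heterozygote signal, and its levels did not overlap between the genotypes. The processed intensity of Akap14 was 66.2 and 37.1 in Noto GFP/GFP, against 116 and 74.3 in Noto GFP/+.

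Odf3b, of the outer dense fibre family, had levels of 10.40 and 9.88 in Noto GFP/GFP, against 11.41 and 10.93 in Noto GFP/+. The homozygote signal was 48.9% of the heterozygote signal, with ratios of -1.02 and -1.05 (mean -1.03 ± 0.02). Array 2 gave lower levels than array 1 in both genotypes, while the ratio within an array had an SD of 0.02, against 0.37 for the level in Noto GFP/GFP and 0.34 in Noto GFP/+. Its processed intensity was 396 and 228 in Noto GFP/GFP, against 818 and 481 in Noto GFP/+.

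Zfp474, the zinc finger gene, had the lowest ratio of the 7, a place it did not keep without background correction. Its probe lies on chromosome 18 at 52764995 to 52765054 (mm8). Its level was 7.49 and 8.02 in Noto GFP/GFP, against 8.51 and 9.15 in Noto GFP/+, with ratios of -1.02 and -1.13 (mean -1.08 ± 0.07). The homozygote signal was 47.5% of the heterozygote signal. Its processed intensity was 44.5 and 46.0 in Noto GFP/GFP, against 122 and 117 in Noto GFP/+, and its unsubtracted spot was 3.39 and 4.29 times the local background in Noto GFP/GFP, against 6.85 and 16.2 times in Noto GFP/+.

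Efcab10, the EF-hand gene, had the smallest difference of the 7. Its level was 11.88 and 11.64 in Noto GFP/GFP, against 12.57 and 12.23 in Noto GFP/+. The ratios were -0.69 and -0.60 (mean -0.65 ± 0.07), or 63.9% of the heterozygote signal. Its processed intensity was 1163 and 763 in Noto GFP/GFP, against 1823 and 1147 in Noto GFP/+, and its spot reached 123 times the local background in Noto GFP/+ on array 2.

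Lrrc71, the leucine-rich repeat gene, is read by 2 probes that did not behave alike. Probe 1 had levels of 10.11 and 9.5 in Noto GFP/GFP, against 10.91 and 10.74 in Noto GFP/+. Its ratios, -0.80 and -1.24 (mean -1.02 ± 0.31), were farther apart than those of any other of the 7 genes, at 49.3% of the heterozygote signal. The SD of its level was 0.43 in Noto GFP/GFP and 0.12 in Noto GFP/+. The processed intensity of probe 1 was 329 and 154 in Noto GFP/GFP, against 561 and 376 in Noto GFP/+. Probe 2 had levels of 7.08 and 6.99 in Noto GFP/GFP, against 7.04 and 6.79 in Noto GFP/+, with ratios of 0.05 and 0.19 (mean 0.12 ± 0.10), and its levels overlapped between the genotypes. Its processed intensity was 16.7 and 5.97 in Noto GFP/GFP, against 14.0 and 3.33 in Noto GFP/+. It was not well above background in either genotype on array 2 and was not counted as measured, so it gives no ratio of the transcript, and the value of Lrrc71 rests on probe 1 alone. Both probes are annotated to the same cDNA, and why they differ was not tested.

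**Figure D1:**
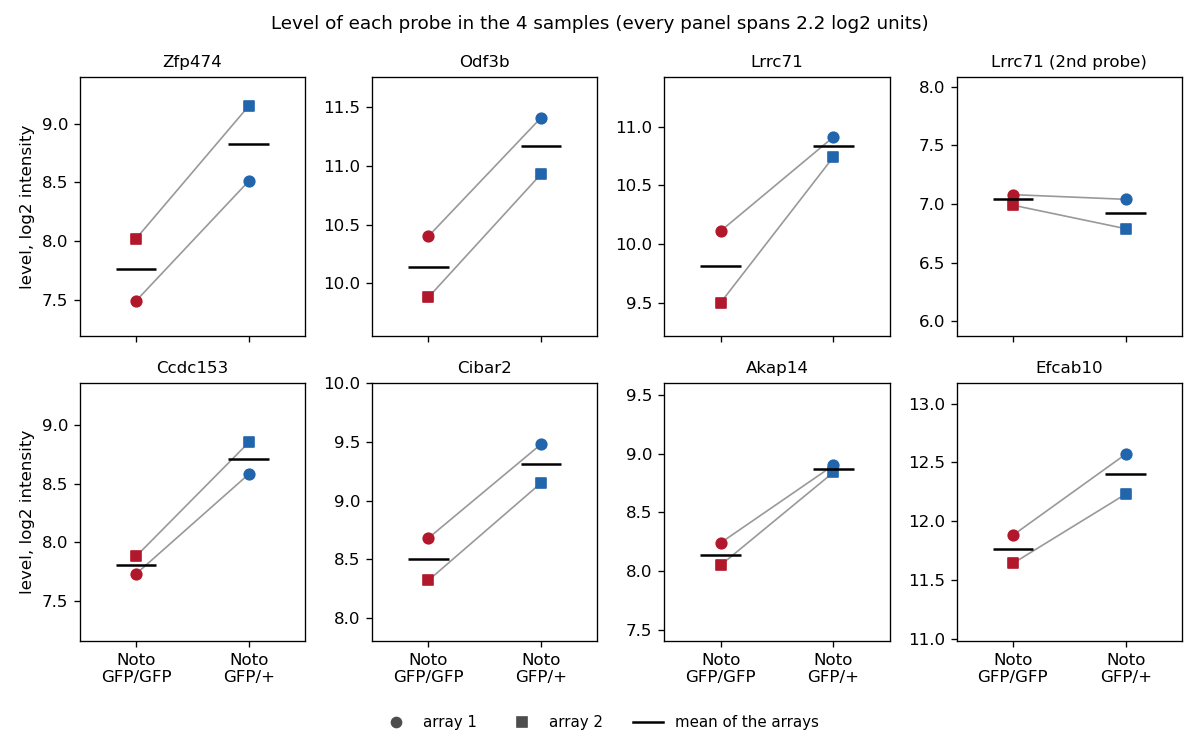
Level of each probe, as log2 intensity, in Noto GFP/GFP (left of each pair) and Noto GFP/+ (right), with points for the single arrays and lines joining the genotypes of an array. For the measured probe of each of the 7 genes both homozygote points lie below both heterozygote points, while the second Lrrc71 probe, near 7 on this scale, overlaps. The 7 genes were selected for being lower on both arrays. How many of all measured genes separate in this way was not counted, so nothing is read from the separation.

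Each of the 7 genes was thus lower in Noto GFP/GFP than in Noto GFP/+ on both arrays, which is how they were chosen. By the same rule 437 of 18625 measured genes were lower (2.35%) and 11 were higher (0.0591%). The split moved with the processing: the scanner software's log ratio gave 714 lower and 101 higher, and 651 lower and 95 higher came from the authors' value table. Among the 6805 genes whose level fell within the range of the 7, a range chosen after seeing the data, 286 were lower (4.2%). Nothing is read from the count of the 7 against these shares. Their median ratio was -0.91, and the array medians were -0.81 and -0.97, beside -0.02 over all measured genes and -0.02 over the genes of like level.

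In order from the lowest ratio the genes were Zfp474, Odf3b, Lrrc71, Ccdc153, Cibar2, Akap14 and Efcab10, with places 123, 141, 154, 222, 304, 404 and 513 among the 18625 genes. Of the 6 pairs of neighbours in that order, 4 overlapped in their array values. Ccdc153 and Cibar2, and Cibar2 and Akap14, did not overlap, and each of these pairs differed by 0.09 in mean ratio. With other processing neither pair held throughout: Cibar2 and Akap14 overlapped under all 4 other settings, and Ccdc153 and Cibar2 overlapped without background correction.

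The dye swap gives the part of each ratio that follows the dye, which is 0 when both arrays give the same ratio. It was 0.01 to 0.06 in size for 6 genes and 0.22 for Lrrc71. None of the 8 probes was saturated in any of the 4 values (0 flags). Spike-in controls with known ratios returned slopes of 0.809 and 0.705 on the 2 arrays, where 1 would be the full ratio, so known log2 ratios were read smaller in size than they were.

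**Figure D2:**
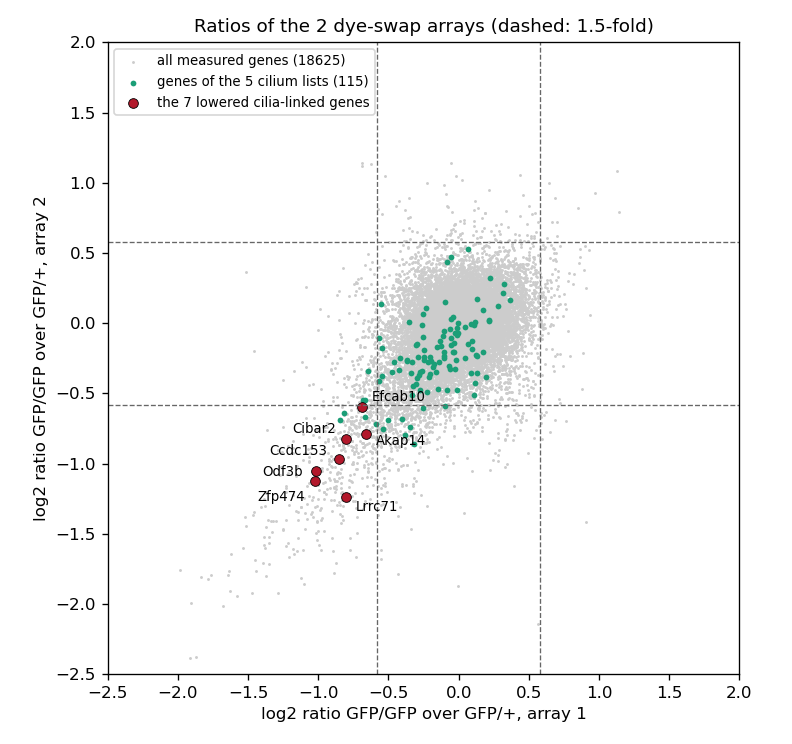
Log2 ratio on array 2 against array 1 for all measured genes (grey) and the 7 genes (marked), with lines at the 1.5-fold bound. Genes of the 5 cilium lists described further on are in green. The 7 genes lie at the lower left beyond the bound on both arrays, and 1 gene falls outside the axes.

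The edge of the selection passes close to Efcab10 and Akap14. Just inside it were Efcab10, at -0.69 and -0.60, and Akap14, at -0.66 and -0.79. Of the genes in the cilium lists described further on, 3 are named here that lay just outside it. They were 1110017D15Rik, at -0.67 and -0.55, Ccdc78, a coiled-coil gene of centriole amplification, at -0.68 and -0.55, and Lrrc23, a radial spoke gene, at -0.54 and -0.75. Each of these 3 genes passed the bound on 1 array and missed it on the other. Genes outside the lists lay nearer to the bound, among them 1110046J04Rik (-0.60 and -0.57), so the 3 are not the nearest of all measured genes.

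The sign of all 7 ratios was negative on both arrays under each of 5 ways of processing the spots. Zfp474 had the widest span of mean ratios, -0.99 without background correction, -1.40 with the scanner software's log ratio and -1.41 with the authors' value table. Ccdc153 ranged between -1.17 and -0.84 and Akap14 between -0.94 and -0.69, and in both the value nearest 0 came without background correction. Cibar2 stayed between -0.94 and -0.78, Odf3b between -1.06 and -0.87, Lrrc71 between -1.05 and -0.88 and Efcab10 between -0.65 and -0.44; the value of the last 3 genes nearest 0 came with median centring. Centring the arrays on their medians in place of the intensity-dependent fit put 5 of the 7 genes past 1.5-fold on both arrays; Lrrc71, at -0.46, and Efcab10, at -0.21, missed it on array 1. That centring moved the median of all genes to 0.39 on array 1 and -0.16 on array 2. Relative to those medians Lrrc71 stood at -0.85 and -1.13 and passed, while Efcab10 stood at -0.60 and -0.51 and did not. With centring alone the arrays correlated at r = -0.0545 across measured genes, against 0.5 with the intensity-dependent fit (genes are not independent replicates).

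**Figure D3:**
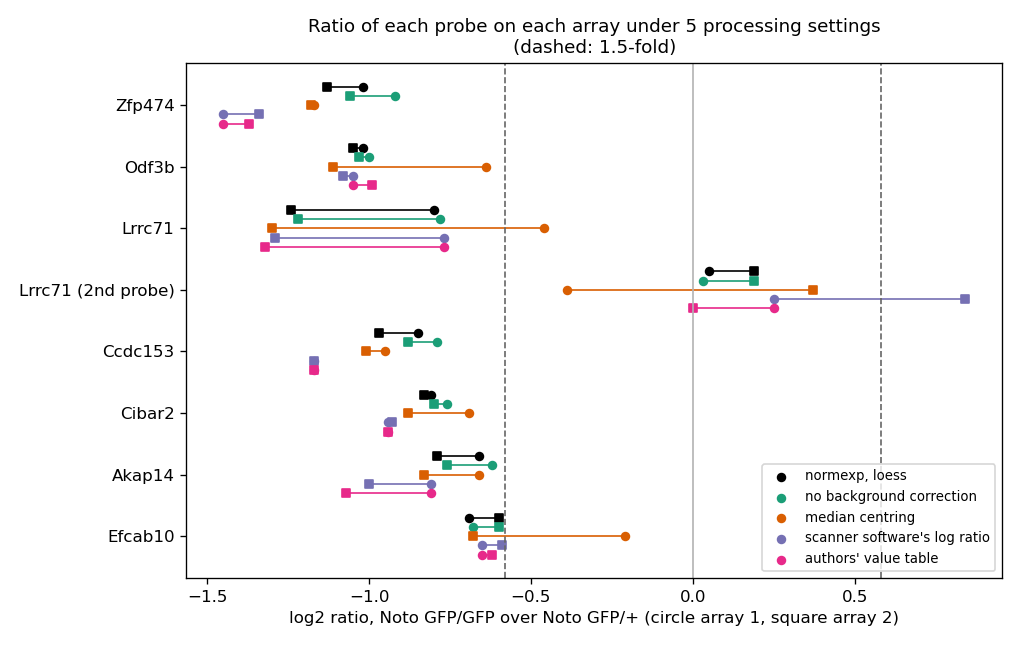
Log2 ratio of Noto GFP/GFP over Noto GFP/+ for each probe on array 1 (circles) and array 2 (squares) under 5 ways of processing, joined by lines, with dashed lines at 1.5-fold. All points of the 7 genes lie below 0; with median centring those of Lrrc71 and Efcab10 on array 1 lie at -0.46 and -0.21, and the second Lrrc71 probe lies on both sides of 0.

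Genes related to the 7 by protein family or by symbol stem, or partners of them in the cilium, were called lower in none of 4 lists by this fit. With the scanner software's log ratio and with the authors' value table, Lrrc23 and Iqca, of 2 of these lists, were called lower, and with the scanner's log ratio Lrrc9 was called higher. The list of relatives took Lrrc, Efcab and Akap genes by their older or current symbol stem, which need not mean a common protein family. Of the whole list, 22 of 30 genes were measured, 0 were lower and 0 higher, and the median ratio was -0.12 ± 0.00 (SD of the array medians). Both array medians were -0.10. Here and below, a list's median is that of the mean ratios, which need not lie between the array medians. The 2 farthest from 0 were Lrrc23 (-0.64 ± 0.15) and Drc3 (-0.49 ± 0.11), a subunit of the nexin-dynein regulatory complex. Cibar1, the paralog of Cibar2, stood at 0.00, and Odf3, the founder of the family of Odf3b, at -0.14.

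Of the nexin-dynein regulatory complex, to which Ccdc153 belongs, 10 of 11 subunits were measured and 0 were called lower. The median was -0.20 ± 0.02, beside array medians of -0.22 and -0.25, with 8 subunits below 0 on both arrays and 0 above. Iqca, at -0.60 ± 0.13, and Drc3, at -0.49 ± 0.11, were the farthest from 0, while Drc1 (-0.37) and Gas8 (-0.09), which build the base of the complex, stood nearer to it. Ccdc153, at -0.91 ± 0.08, lay below each of these 10 mean ratios. It was selected for its low ratio and these subunits were not, so nothing is read from this contrast.

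Of the partners of Cibar2 at the ciliary base, 11 of 12 were measured, 0 were called, and the median was -0.05 ± 0.09. Cby1, which encodes Chibby, stood at -0.36 ± 0.26, and Cep164, of the distal appendages of the centriole, at -0.35 ± 0.01. On the other side of 0 stood Cc2d2a and Ofd1 (0.27 each) and Rab8a (0.18), and 4 of the 11 lay below 0 on both arrays and 2 above. Of protein kinase A subunits and flagellar anchoring partners, for Akap14, 9 of 12 were measured and 0 were called. Their median was -0.21, although the medians of the single arrays were -0.04 and -0.03. Ropn1l and Spa17, which carry the docking domain of the kinase's regulatory subunit, stood at -0.38 ± 0.06 and -0.38 ± 0.14, and 5 of the 9 genes lay below 0 on both arrays and 1 above.

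The last list held other little-studied transcripts of ciliated cells. Of these 66 of 92 were measured, 5 were lower and 0 higher, with a median of -0.24 ± 0.04 and 50 genes below 0 on both arrays against 5 above. The 5 lower genes were 1700012B09Rik (-1.04 ± 0.02), Ccdc113 (-0.77 ± 0.11), which encodes a centriolar satellite and axonemal protein, Cfap45 (-0.73 ± 0.12), a protein inside the doublets, Morn5 (-0.67 ± 0.00) and Cfap65 (-0.65 ± 0.09), needed in the sperm flagellum. Of these, Cfap65 was not called without background correction, and Cfap45, Morn5 and Cfap65 were not with median centring. The second probe of Cfap65 read -0.03 and that of 1700012B09Rik -0.90. Over all 5 lists, 115 different genes were measured, 5 were lower and 0 higher, and the median was -0.19, with 79 below 0 on both arrays and 11 above. Over all 18625 measured genes the median was -0.02, with 6328 below 0 on both arrays and 4782 above. The lists were drawn up with results of these arrays known, so these counts are no independent evidence of a direction.

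**Figure D4:**
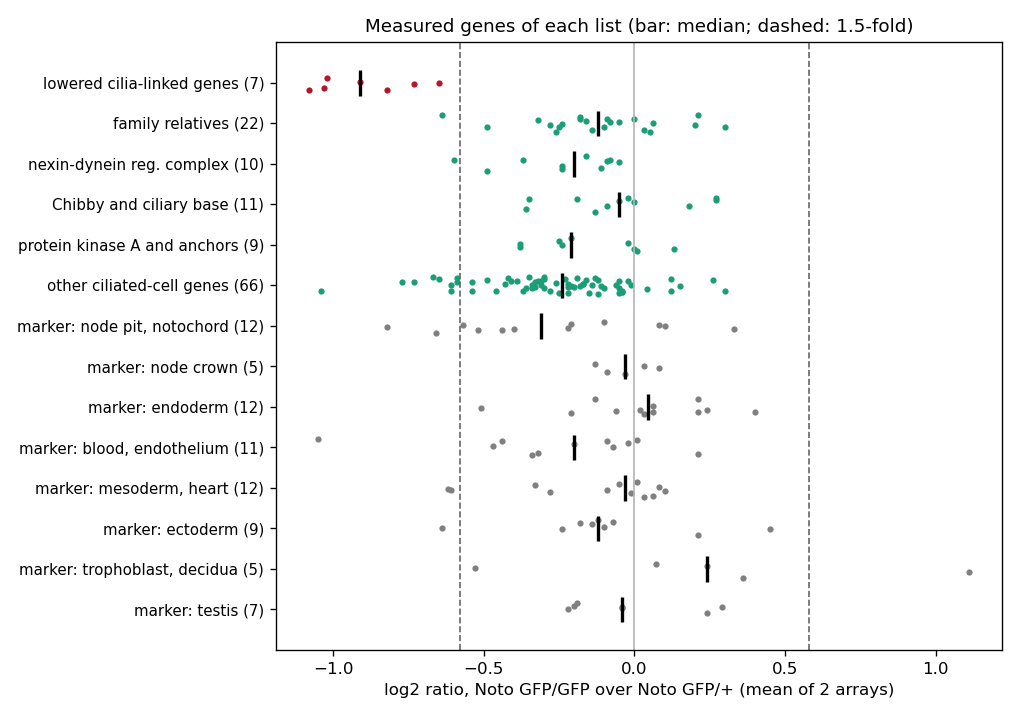
Log2 ratio of Noto GFP/GFP over Noto GFP/+ (mean of 2 arrays) for the 7 genes (red), each measured gene of the 5 cilium lists (green) and of the 8 marker lists described next (grey), with bars at the medians. The cilium-list medians lie between -0.24 and -0.05, between those of the 7 genes at -0.91 and of all measured genes at -0.02.

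Among the regulators of motile cilia, Foxj1 stood at -0.52 ± 0.09, with -0.59 on array 1 and -0.46 on array 2, and so passed 1.5-fold on array 1 alone. Rfx2, at 0.10 ± 0.07, Rfx3, at 0.02 ± 0.01, and Rfx4, at -0.09 ± 0.16, lay near 0. The genes whose pair of ratios was nearest to the medians of the 7, among 8835 candidates of like level, were Olfr1225, an olfactory receptor (distance 0.03 over 2 arrays), Alpi, an intestinal phosphatase (0.05), Hba-a2, a globin (0.05), Ly6g5b (0.06) and Meig1, a gene of spermatogenesis (0.07). Only genes with an established symbol were taken, so these genes need not be the nearest of all transcripts. Likeness over 2 technical arrays says only that their ratios are of the same size.

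Markers of the cell types that the pieces could hold were read beside the 7 genes. Of markers of the node pit, notochord and floor plate, the ciliated cells of this tissue and their neighbours, 12 of 12 were measured, Foxj1, T and Shh among them. Of these 1 was called lower, Tppp3 (-0.82 ± 0.16), and the median was -0.31 ± 0.04, with 9 below 0 on both arrays and 2 above. Foxj1 (-0.52) and Shh (-0.44) stood below 0 in mean ratio, while T (0.33), Foxa2 (0.10) and Chrd (0.08) stood above it. The summed processed intensity of the 12 markers was 49350 and 39036 in Noto GFP/GFP, against 51876 and 38641 in Noto GFP/+. It was thus lower in Noto GFP/GFP on array 1 and higher on array 2. The 5 markers of the node crown had a median of -0.03, and their summed intensity was 20318 and 13201 in Noto GFP/GFP, against 20866 and 13151 in Noto GFP/+. This sum too differed in direction between the arrays.

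Blood and endothelium markers were measured for 11 of 13, with a median of -0.20 ± 0.03, 7 below 0 on both arrays and 1 above. Their sum was 2483 and 1765 in Noto GFP/GFP, against 3476 and 2482 in Noto GFP/+, lower on both arrays. Hba-a1 alone was called lower (-1.05 ± 0.18), and its share in that sum was not determined. Mean ratios of the other measured blood markers ran from -0.47 (Tal1) to 0.21 (Gata1). Alas2 (-0.09), Klf1 (-0.07), Pecam1 (-0.02) and Cdh5 (0.01) lay near 0. Markers of mesoderm and heart had a median of -0.03, with Meox1 (-0.62) and Nppa (-0.61) called lower (neither with median centring, and Nppa not without background correction), those of endoderm 0.04, and those of ectoderm -0.12 with 9 of 10 measured. Of trophoblast and decidua markers 5 of 6 were measured, with a median of 0.24, and Prl8a2 was called higher (1.11 ± 0.03). Many genes of cilia are also genes of the sperm flagellum, so markers of testis were read too: 7 of 12 were measured, none was called, the median was -0.04, and Odf1, Akap4 and Pgk2 were not well above background in any of the 4 values. The summed intensity of testis markers was 3800 and 1527 in Noto GFP/GFP, against 3198 and 1350 in Noto GFP/+, higher on both arrays. That of trophoblast and decidua was 2507 and 1479 in Noto GFP/GFP, against 2534 and 1756 in Noto GFP/+, lower on both although their median ratio was above 0. Endoderm markers summed to 103362 and 75684 in Noto GFP/GFP, against 102659 and 75333 in Noto GFP/+, and ectoderm markers to 108994 and 74156 in Noto GFP/GFP, against 116559 and 74686 in Noto GFP/+. Mesoderm and heart markers, at 80660 and 61549 in Noto GFP/GFP, against 74551 and 65030 in Noto GFP/+, differed in direction between the arrays. The medians of pit (-0.31), blood (-0.20) and ectoderm (-0.12) markers were lower in Noto GFP/GFP, as were the 7 genes. So were the sums of blood, of ectoderm, and of trophoblast and decidua markers on both arrays. The medians of node crown, mesoderm and testis markers lay nearer 0, at -0.03, -0.03 and -0.04. The part of these cell types in the ratios was not tested.

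The promoters of 6 of the 7 genes, 250 bases before to 50 after the start in RefSeq (GRCm38.p6), were searched on both strands for 4 motifs. GTTGCC, an arm of the RFX X-box, occurred in 4 of the 6 and in 12.5% of 32851 promoters; before the start alone it was in 3 of the 6 and in 10.4% of promoters. A paired X-box, GTNNCC and then GGNNAC after 0 to 3 bases, was in 2 of the 6 and in 3.86% of promoters. The forkhead core TGTTTA was in 2 of the 6 and in 13.4%, and GTAAACA in 1 of the 6 and in 3.65%. The reverse complement of GTAAACA contains TGTTTA, so each GTAAACA match is also counted under TGTTTA. These motifs are given because FOXJ1 and RFX factors are the known regulators of such genes; a match is a description of letters, not of binding.

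The stretches with a match before the start are printed 5′ to 3′ on the strand of the gene, with the matched letters in capitals; Cibar2 is given over its whole 250 bases because it holds the most matches, and the others over 100 bases.
Cibar2 chr8:120177470-120177719 (- strand): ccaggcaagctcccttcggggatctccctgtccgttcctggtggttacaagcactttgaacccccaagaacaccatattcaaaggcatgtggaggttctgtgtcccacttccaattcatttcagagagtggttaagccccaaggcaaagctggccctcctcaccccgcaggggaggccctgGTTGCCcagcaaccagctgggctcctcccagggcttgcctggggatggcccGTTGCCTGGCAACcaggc
Ccdc153 chr9:44240478-44240577 (+ strand): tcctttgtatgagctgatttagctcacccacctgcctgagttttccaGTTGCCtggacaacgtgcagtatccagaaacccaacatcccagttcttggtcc
Efcab10 chr12:33394667-33394766 (+ strand): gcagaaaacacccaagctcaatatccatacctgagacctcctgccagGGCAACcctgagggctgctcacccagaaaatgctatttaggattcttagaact
Odf3b chr15:89379255-89379354 (- strand): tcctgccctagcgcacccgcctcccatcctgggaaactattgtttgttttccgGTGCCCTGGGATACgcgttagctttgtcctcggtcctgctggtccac
Akap14 chrX:37168843-37168942 (- strand): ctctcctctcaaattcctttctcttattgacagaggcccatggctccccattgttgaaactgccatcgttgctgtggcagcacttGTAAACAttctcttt
Cibar2 held GTTGCC at 69 to 64 and at 18 to 13 bases before the start, and on the opposite strand at 11 to 6; the matches at 18 to 13 and 11 to 6 make up a paired X-box at 18 to 6. Odf3b held a paired X-box at 47 to 34 bases before the start, with no GTTGCC in it, and TGTTTA on the opposite strand at 157 to 152, outside the stretch shown. Ccdc153 held GTTGCC at 152 to 147, and Efcab10 held it on the opposite strand at 140 to 135, where the printed letters read GGCAAC. Akap14 held GTAAACA at 15 to 9, and its TGTTTA, on the opposite strand at 14 to 9, is part of the same site. Lrrc71 held GTTGCC only after its start, at 45 to 50 bases, and no stretch of it is shown. Cibar2, with the most matches, stood at -0.82 in ratio, between Ccdc153 and Akap14.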

How the data were processed

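Homozygous and heterozygous RNA was hybridised together on 2 Agilent arrays with the dyes exchanged. Per the file headers, the deposited scanner files hold spot intensity from Agilent Feature Extraction 9.5.3.1, a version also given in the submitters' processing notes, and the log10 of Cy5 over Cy3; the deposited quality flags (other) mark spots well above background, saturated or outlying. The deposited value table follows the processed intensity of each labelled dye, multiplied by 1.07 on array 1 and 1.28 on array 2 and floored at 15; its column medians were 110 and 95.1 in Noto GFP/GFP, and 111 and 96.2 in Noto GFP/+, and the origin of those factors is not given in the sources used here. The 2 samples of an array have identical files.

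Mean foreground and median background were corrected with normexp (offset 50), ratios fitted by loess with control spots at weight 0, and levels scaled by Aquantile (R 4.3.3, limma 3.58.1; Python 3.11.15). Array 2 was turned so that both ratios read homozygote over heterozygote. A gene took its brightest measured probe, one that both arrays read well above background in 1 genotype or both; called means 1.5-fold the same way on both. No p-value was computed, since the arrays are technical. Of the probes, 24496 were named through an accession, 8620 through a symbol and 8058 kept the file's name. The number of arrays limits the precision. The 7 genes and the lists were chosen with earlier results of these data known. Named were all 7 genes, the called genes of each list or else the 2 farthest from 0, Foxj1 and 3 Rfx genes, and the 5 genes nearest in ratio; other genes were named after their values were seen. The normalization and call rule were tested on simulated data: of 200 spots changed by a known fold in a simulation of both arrays (43379 spots), 200 were recovered, with 0 false calls. The changed spots were taken from the brighter ones and changed by at least 2-fold, with low noise and a constant dye factor. Recovery was thus easy, and the simulation does not cover dim spots, smaller changes or a dye bias that follows intensity.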

Additional observations from a re-analysis of the deposited data

How the results depend on the processing

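The 7 mean ratios (and that of the second Lrrc71 probe) were computed under 48 alternatives in all: 17 moved a ratio by more than the SD of the arrays, 31 did not, and none changed the sign of a called ratio (0). At 2-fold on both arrays, 2 of the 7 genes, 94 measured genes and 1 cilium-list gene were lower, and 2 measured genes were higher. With the scanner software's log ratio, 714 measured genes and 8 cilium-list genes were lower, 101 measured genes were higher, the median of the 7 was -1.03, and the medians were -0.12 for relatives, -0.25 for the nexin-dynein regulatory complex and -0.20 for protein kinase A subunits and anchors. With the authors' value table, 8 cilium-list genes were lower and 95 measured genes higher, and those medians were -0.13, -0.23 and -0.20. With median centring, 2 cilium-list genes were lower, and the medians were -0.06, -0.11 and -0.02, with 0.10 for the partners at the ciliary base and -0.16 for other ciliated-cell transcripts; all genes then had a median of 0.12. With the mean of the measured probes the first 3 medians were -0.09, -0.15 and -0.03. With no filter on dim probes they were -0.09, -0.16 and -0.09, and other ciliated-cell transcripts had -0.18. Probes well above background in both genotypes gave -0.24 for the regulatory complex. Within the level range of the 7, an alternative chosen after seeing the data, 286 genes were lower. On 1 array alone, 645 to 945 measured genes and 8 to 13 cilium-list genes were lower, against 437 and 5 on both, and 114 to 125 measured genes were higher, against 11; the 7 kept medians of -0.97 to -0.81, relatives -0.10 to -0.10, the regulatory complex -0.25 to -0.22, partners at the base -0.14 to 0.00, anchors -0.04 to -0.03 and other transcripts -0.27 to -0.22. No paired analysis was possible because the arrays are technical repeats of 1 pool per genotype, so no separate pools can be paired; each ratio was taken within an array. In Noto GFP/GFP the spots of Zfp474 and Ccdc153 were 3.39 to 4.29 times the local background, and no biological replicate stands behind any value.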
